A study of Caenorhabditis elegans with 20 samples.

Results

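The transthyretin-related (ttr) genes of Caenorhabditis elegans were taken as all rows of the count table whose gene ID maps to a WormBase symbol starting with ttr-, which gave 58 of the 46904 gene IDs in the table. All 58 are annotated as protein coding. Poly(A) RNA of whole young adult worms had been sequenced from 4 groups of 3 replicates each. The wild type (WT) and worms carrying the allele ns889 were each kept on plates with the bacterium Escherichia coli OP50 alone or with the mold P. brevicompactum added. All 4 groups grew from arrested L1 larvae for 48 h at 20 °C with that bacterium as food. The labels name no gene for ns889, so the affected gene was not checked here. Nothing in the labels says that replicates came from separate cultures, so the p-values reflect only the spread between the sequenced samples, which may be technical.

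Transthyretin in vertebrates is a secreted carrier of thyroid hormone and of the retinol-binding protein. Nematodes have a large family of genes for small proteins with a related fold, most of them predicted to be secreted, and parasitic nematodes release such proteins into their hosts. For most worm members no function is known. TTR-52 binds phosphatidylserine on the surface of dying cells and links it to the engulfment receptor CED-1, and TTR-33 protects dopaminergic neurons from degeneration under oxidative stress.

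The replicates held 95998037 to 115940062 counts, so that 3 counts, taken as the detection floor, correspond to 0.0259 to 0.0313 CPM, the counts scaled to a common library size of 1e6. Intervals and floors of this kind cover counting error only. The root mean square log2 distance of a replicate from the mean of the others in its group ran from 0.343 to 0.612. It was highest in WT without mold replicate 1 (0.612), followed by WT with mold replicate 3 (0.577) and WT with mold replicate 1 (0.533). Counts of ttr genes are given with and without the first pair. Replicate 1 of each group came from 1 sequencing run and replicates 2 and 3 from 2 runs each, which the labels do not call a batch. Values within the 8 replicates with 2 runs are therefore given too, and the 4 with 1 run hold too few samples for a test. Markers of epidermis, intestine, neurons, muscle, pharynx, sperm and oocytes were all present in every group, apart from 1 of 16 pharynx genes listed at 0 in both groups without mold.

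The family was spread over all 6 chromosomes, with 22 genes on V, 12 on X, 10 on IV, 9 on III, 3 on I and 2 on II. Exonic lengths ran from 409 to 1415 bases, with a median of 568. A total of 29 genes lay within 5000 bases of another ttr gene, in 12 runs of at most 3. In 7 of the 12 runs all members lay on the same strand.

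Levels of the ttr genes differed far more between genes than between groups. On the scale of CPM per kilobase of exon, averaged over the 12 replicates, 7 genes reached at least 100 and 25 lay between 10 and 100. A further 21 lay between 1 and 10, and 5 were below 1. The highest tested gene was 5054-fold above the lowest. The most abundant was ttr-15 at 771 CPM per kilobase, above 99.16% of the genes tested. It was followed by ttr-16 at 499 CPM per kilobase. The next 5 were ttr-2 at 234, ttr-46 at 201, ttr-14 at 197, ttr-18 at 195 and ttr-51 at 190 CPM per kilobase. The 10 highest were completed by ttr-41 at 91.1, ttr-45 at 79.8 and ttr-17 at 75.4 CPM per kilobase. Of the 57 pairs of neighbours in this order, 54 overlapped in their ranges over the 12 replicates. The gaps lay between ttr-16 and ttr-2, between ttr-51 and ttr-41, and between the last pair, ttr-3 and ttr-19. These ranges pool all 12 replicates and do not compare genes within a replicate, so overlap alone does not leave an order unresolved. The order of ttr-2, ttr-46, ttr-14, ttr-18 and ttr-51 within single replicates was not tested.

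**Figure D1:**
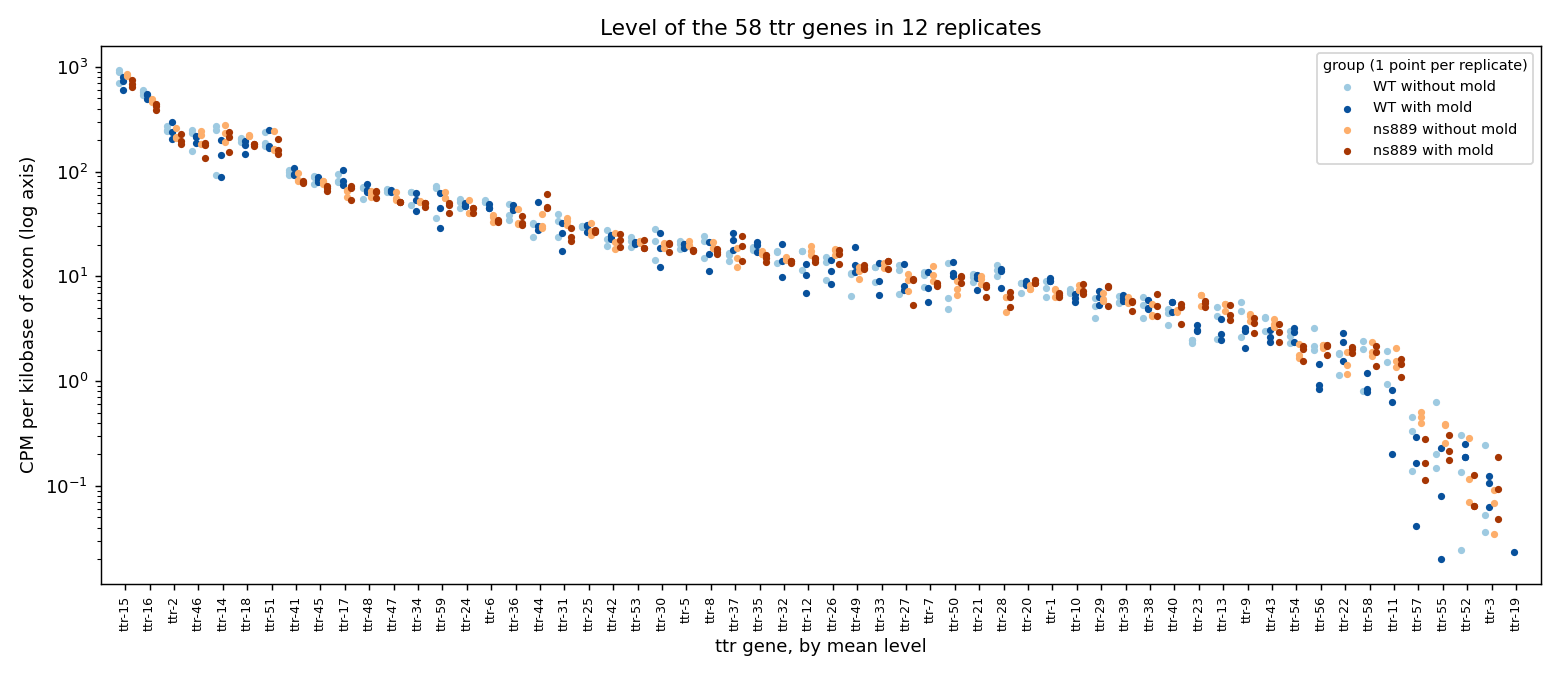
Level of each of the 58 ttr genes in CPM per kilobase of exon (log axis), with 1 point per replicate coloured by group and genes ordered by mean level. ttr-15 and ttr-16 stand above the rest at 771 and 499, a group of 5 genes follows between 190 and 234, and ttr-57, ttr-55, ttr-52, ttr-3 and ttr-19 lie below 1; values of 0 are not drawn.

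Together ttr-15, ttr-14 and ttr-16 gave 48.9% of the summed CPM of the family. The summed level of all 58 genes was 1927, 2475 and 2388 CPM in WT without mold and 2272, 2017 and 1783 CPM in WT with mold. It was 2181, 2130 and 2267 CPM in ns889 without mold and 1788, 1971 and 2007 CPM in ns889 with mold. The WT groups overlapped in this sum, while the ns889 replicates with mold all lay below those without. The sum was not tested. The 16 intestine genes summed to 67160 to 68500 CPM in ns889 without mold and to 45910 to 51480 CPM with mold, none at 0 in a group. Of them 1 was called higher and 3 lower, beside 1.86% and 1.28% of all genes. Such a sum is weighted to the most abundant genes, and the median log2 fold change of the 16 was 0.05. Of 16 molting cycle genes 2 were higher with mold in ns889. The part of these markers in the ttr sum was not tested.

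Neighbouring genes of a run often had unequal levels. The level per kilobase differed more than 5-fold between the highest and the lowest member in 5 of the 12 runs. On chromosome III, ttr-2 reached 234 CPM per kilobase, whereas ttr-3 in the same run of 3 was at 0.0962. On chromosome V, ttr-12 was at 14.5 CPM per kilobase and ttr-57 beside it at 0.279. The smallest ratio was 1.24, between ttr-8 and ttr-32 on chromosome III.

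At the lower end, ttr-3 and ttr-19 did not pass the filter on low counts and were not tested. ttr-3 had 72 counts over all replicates, or 0.0201 to 0.144 CPM, and ttr-19 had 1 count in all. The lowest tested genes were ttr-57 at 0.279, ttr-55 at 0.254 and ttr-52 at 0.153 CPM per kilobase. ttr-52 had 83 counts over the 12 replicates. Its level was 0.0591, 0.0105 and 0.133 CPM in WT without mold and 0.109, 0.0822 and 0.0821 CPM in WT with mold. In ns889 it was 0.124, 0.0502 and 0.0302 CPM without mold and 0.0545, 0.0277 and 0.0279 CPM with mold. The highest of these values was 0.133 CPM. With mold ns889 was below WT in every replicate, with a log2 fold change of -1.29 ± 0.76 (adjusted p = 0.298), and at this depth the standard errors of this engulfment ligand, 0.70 to 0.78 in the comparisons of groups, leave changes of that size uncalled.

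The other 56 genes were tested in each comparison together with all 16980 genes that passed the filter. Log2 fold changes are given with their standard errors, and the threshold was an adjusted p of 0.05 (quasi-likelihood test of edgeR, adjusted by the Benjamini-Hochberg method over every gene tested). Between the highest and the lowest of the 12 replicates the median ttr gene differed 1.98-fold and the median gene 1.82-fold. A total of 28 of the 56, or 50%, stayed within 2-fold, beside 55.7% of all genes. 6 ttr genes passed the threshold in at least 1 comparison, and 50 in none.

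**Figure D2:**
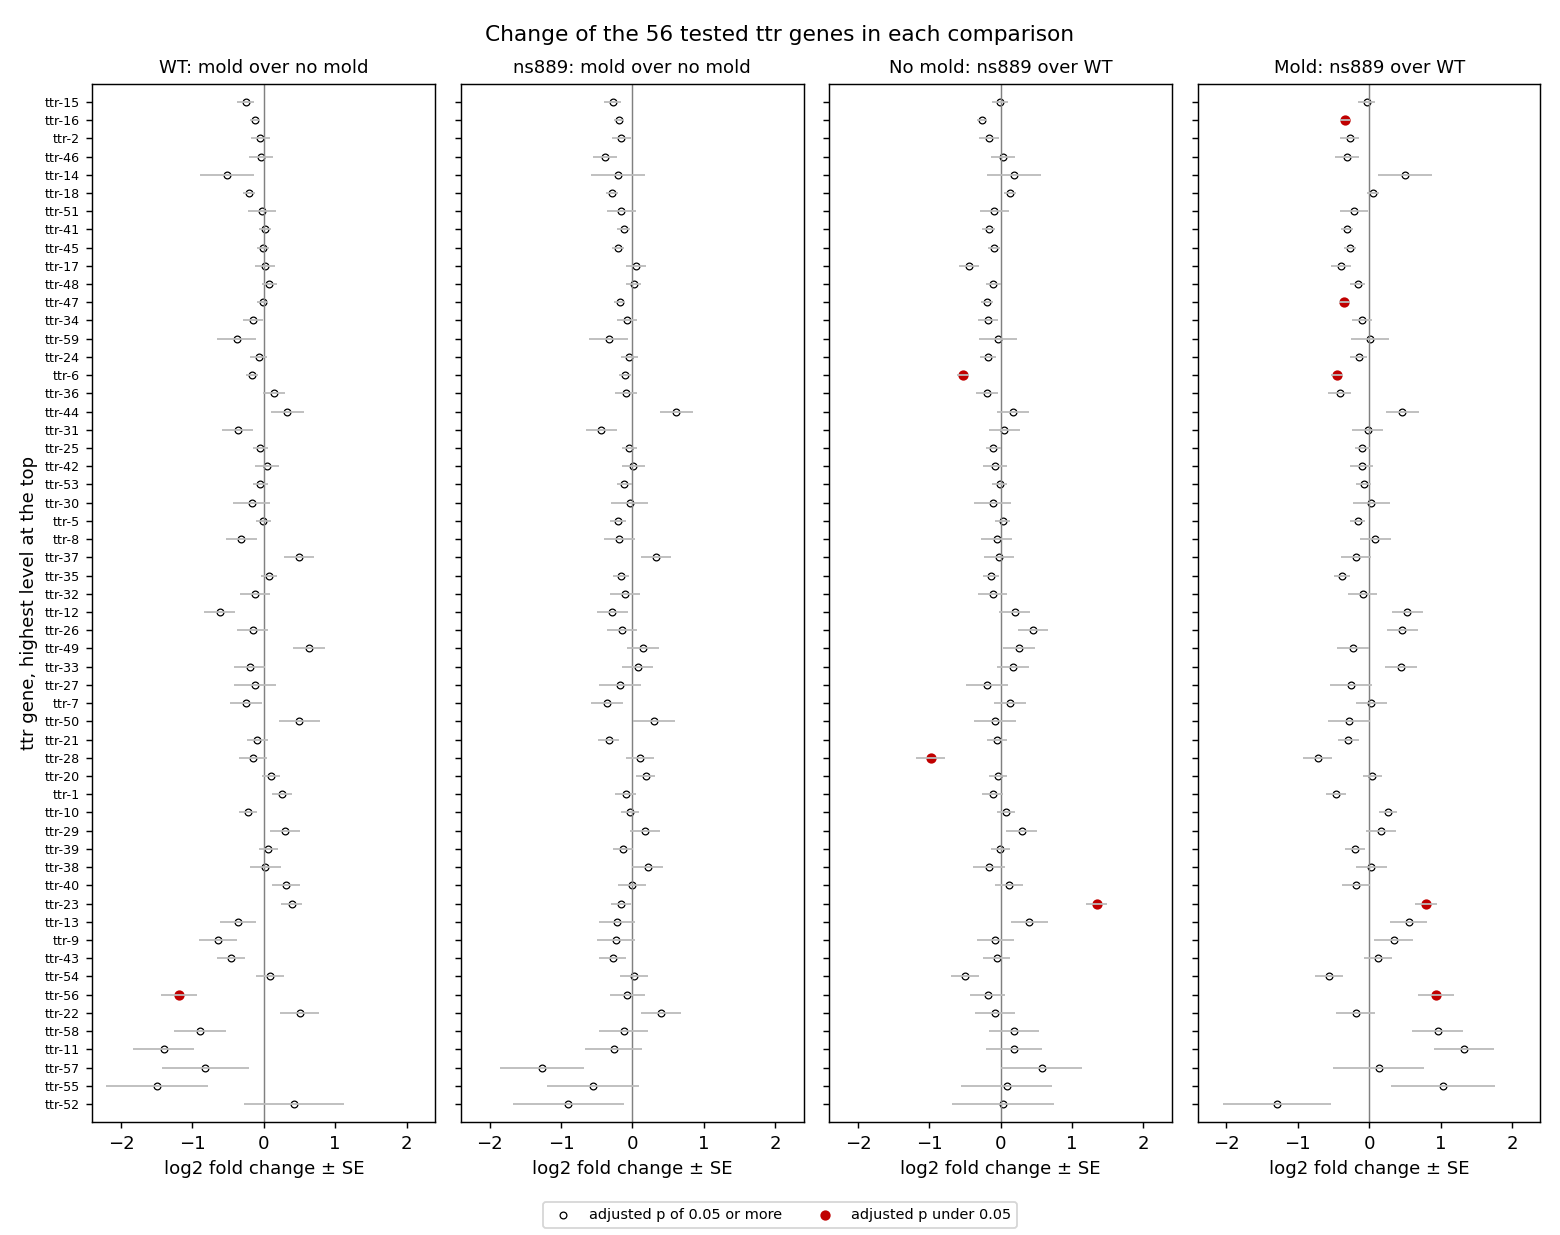
Log2 fold change with its standard error for the 56 tested ttr genes (rows, highest level at the top) in the 4 comparisons of groups; filled red points have an adjusted p under 0.05. The red points number 1 for mold in WT, 0 for mold in ns889, 3 for genotype without mold and 5 for genotype with mold, and the bars widen for the low genes at the bottom.

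The comparison of genotypes asked which genes ns889 animals express differently on the same plates. Without mold, ttr-23 was higher in ns889, and ttr-6 and ttr-28 were lower. That is 1 of 56 ttr genes higher and 2 lower, beside 2.42% and 0.453% of all genes. The median log2 fold change was -0.05 over the ttr genes and -0.01 over all genes. With mold, ttr-23 and ttr-56 were higher and ttr-6, ttr-16 and ttr-47 were lower. That is 2 of 56 higher and 3 lower, beside 5.12% and 1.61% of all genes. The median was -0.10 over the ttr genes and -0.01 over all genes. The RNA came from whole animals, so fewer cells of a type and less RNA per cell cannot be told apart for any of these genes. Both genotype comparisons use their own groups of 6 replicates but 1 shared estimate of the spread.

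ttr-23 lies on the reverse strand of chromosome V at chrV:10589092-10589898 (WBcel235), with no other ttr gene within 361658 bases. It was at 1.44, 1.44 and 1.36 CPM in WT without mold and at 3.86, 3.04 and 3.88 CPM in ns889 without mold. With mold it was at 2.00, 1.82 and 1.76 CPM in WT and at 3.45, 3.24 and 2.99 CPM in ns889. Every ns889 replicate lay above every WT replicate, on either kind of plate. The log2 fold change of ns889 over WT was 1.34 ± 0.15 without mold (adjusted p = 3.08e-04) and 0.80 ± 0.15 with mold (adjusted p = 0.0069). Both calls held under each of the 20 alternatives that tested the gene. In the filter of 5 CPM it was not tested. The mold response of ttr-23 differed between the genotypes by -0.55 ± 0.21, with an unadjusted p of 0.0222 and an adjusted p of 0.87. Of the 10 nearest tested genes, 5 on each side, 0 passed the threshold in either genotype comparison. That look at neighbours, here and below, was chosen after the values were seen.

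ttr-6 lies on the reverse strand of chromosome X at chrX:6596425-6597121. It was at 29.6, 30.5 and 29.6 CPM in WT without mold and at 25.8, 25.9 and 28.2 CPM in WT with mold. In ns889 it was at 22.3, 21.3 and 18.8 CPM without mold and at 19.4, 19.01 and 19.7 CPM with mold. All 6 ns889 replicates lay below all 6 WT replicates. The log2 fold change of ns889 over WT was -0.52 ± 0.08 without mold (adjusted p = 0.00336) and -0.46 ± 0.08 with mold (adjusted p = 0.0062). These calls held under each of the 21 alternatives. The difference between the mold responses was 0.07 ± 0.12 (adjusted p = 0.91), and 0 of the 10 nearest tested genes passed the threshold.

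**Figure D3:**
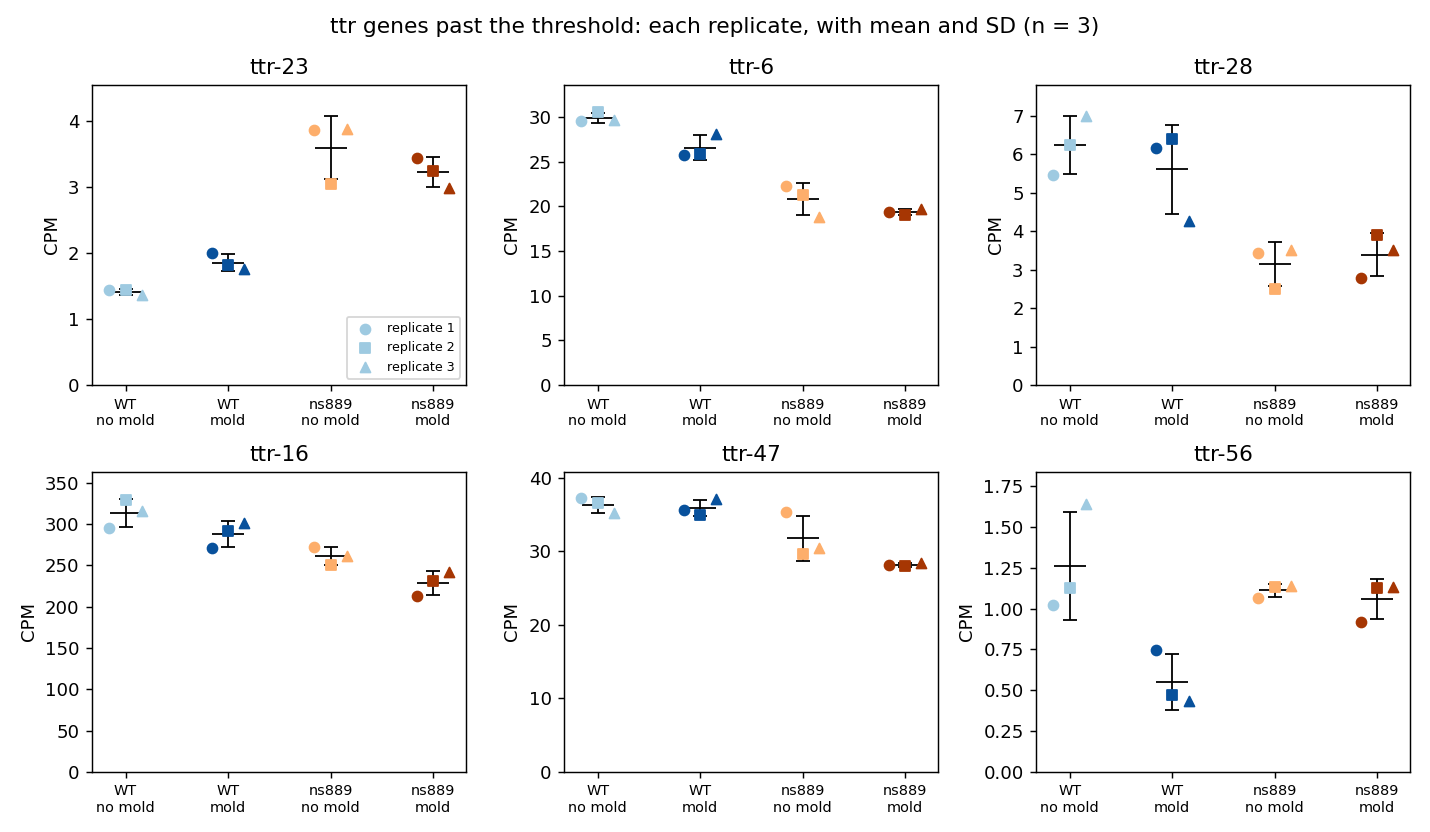
CPM of the 6 ttr genes past the threshold in any comparison, with 1 symbol per replicate and the mean and SD of each group (n = 3). ttr-23 and ttr-6 separate the genotypes on both kinds of plate, and ttr-56 is lowest in WT with mold, at 0.744, 0.472 and 0.431.

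ttr-28 is the middle gene of a run of 3 on the reverse strand of chromosome V, at chrV:12904213-12905168, 53 bases from ttr-27. It was at 5.47, 6.25 and 6.997 CPM in WT without mold and at 3.45, 2.50 and 3.51 CPM in ns889 without mold. With mold it was at 6.16, 6.39 and 4.27 CPM in WT and at 2.78, 3.90 and 3.51 CPM in ns889. Here too all ns889 replicates were below all WT replicates. ns889 over WT gave a log2 fold change of -0.98 ± 0.20 without mold (adjusted p = 0.0172) and -0.72 ± 0.20 with mold (adjusted p = 0.0511), which missed the threshold. With mold it passed in 6 of the 21 fits that tested the gene, with adjusted p from 0.00389 to 0.172. The call without mold was lost when any of 4 replicates was left out (WT without mold replicate 2 or 3, ns889 without mold replicate 1 or 2), with adjusted p up to 0.104 over all alternatives. The genes on either side were not called: without mold, ttr-27 had a log2 fold change of -0.20 ± 0.29 and ttr-29 of 0.29 ± 0.21.

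ttr-16, the second most abundant member, lies on the reverse strand of chromosome IV at chrIV:11063512-11064152. It was at 271, 292 and 302 CPM in WT with mold and at 213, 231 and 242 CPM in ns889 with mold. Without mold it was at 296, 329 and 316 CPM in WT and at 272, 250 and 261 CPM in ns889. The genotypes did not overlap on either kind of plate. The log2 fold change of ns889 over WT was -0.33 ± 0.07 with mold (adjusted p = 0.0127) and -0.27 ± 0.07 without (adjusted p = 0.0656). Without mold it passed in 7 of 22 fits, with adjusted p from 0.00775 to 0.286. The call with mold was lost when replicate 2 of WT with mold, or replicate 1 or 2 of ns889 with mold, was left out, with adjusted p up to 0.0611. ttr-16 shares 102 exonic bases with lin-3, the EGF-like growth factor gene, on the other strand. The library kit was stranded but the strand setting of the counting is not given in the sources used here, so reads from these bases cannot be assigned with certainty. lin-3 averaged 52.5 CPM, beside 273 CPM for ttr-16, and had a log2 fold change of -0.28 with mold (adjusted p = 0.172). The gene next to ttr-16, ttr-17, had log2 fold changes of -0.44 ± 0.14 without mold (adjusted p = 0.158) and -0.40 ± 0.14 with mold (adjusted p = 0.112). Of the 10 tested genes nearest to ttr-16, 1 was called with mold, F36H1.12, which was higher in ns889 at 2.42 ± 0.56 (adjusted p = 0.0219).

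ttr-47 lies on the forward strand of chromosome V at chrV:8923088-8923936. It was at 35.6, 34.9 and 37.04 CPM in WT with mold and at 28.2, 27.9 and 28.4 CPM in ns889 with mold. Without mold it was at 37.2, 36.5 and 35.1 CPM in WT and at 35.3, 29.6 and 30.4 CPM in ns889, where 1 ns889 replicate reached the WT range. For ns889 over WT the log2 fold change was -0.35 ± 0.08 with mold (adjusted p = 0.0198) and -0.19 ± 0.08 without (adjusted p = 0.33). Leaving out any of 5 of the 6 replicates with mold (all but WT with mold replicate 1) ended the call, with adjusted p up to 0.109. ttr-47 shares 37 exonic bases with H14N18.4, which had a log2 fold change of 0.06 with mold (adjusted p = 0.839).

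Among the other abundant members no genotype difference was called in the fit of all 12 replicates. Over that fit and its 21 alternatives, ttr-41 passed with mold in 6, ttr-45 in 3, ttr-46 in 2 and ttr-14 in 1. ttr-2, ttr-15, ttr-17, ttr-18 and ttr-51 passed with mold in 0, and ttr-17 passed without mold in 2. With mold the estimates of ttr-17 (-0.40 ± 0.14) and ttr-14 were larger in size than those of ttr-16 and ttr-47, but their standard errors were wider. With mold the log2 fold change of ns889 over WT was -0.31 ± 0.09 for ttr-41 (adjusted p = 0.0512) and -0.27 ± 0.08 for ttr-45 (adjusted p = 0.0701). It was -0.03 ± 0.12 for ttr-15, the most abundant member, and 0.05 ± 0.09 for ttr-18. For ttr-14, whose replicates spread widely, it was 0.50 ± 0.38 (adjusted p = 0.418). For ttr-2, ttr-46 and ttr-51 it was -0.27 ± 0.13, -0.31 ± 0.17 and -0.22 ± 0.20. By the estimates alone, 27 of the 56 genes were lower in ns889 on both kinds of plate. A further 15 were higher on both and 14 differed in sign, counts that were not taken over all genes. Without mold 35 of the 56, or 62.5%, were below 0, where 51.6% of all genes were not above 0. With mold it was 33, or 58.9%, where 50.81% of all genes were not above 0. The standard errors ran from 0.07 for the most precisely measured genes to 0.76 for the least, and the smallest change called in any comparison was 0.33.

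Several markers moved with genotype on plates with mold. Of 16 molting cycle genes, 7 were higher in ns889 with mold and 0 lower, and their summed level was 106 to 115.4 CPM in WT with mold and 141 to 169 CPM in ns889 with mold. Of 16 intestine genes, 5 were lower and 0 higher, with a median log2 fold change of -0.145 over the 16. The sum of the 16 was 61540 to 84970 CPM in WT with mold and 45910 to 51480 CPM in ns889 with mold. Of 16 epidermis genes 2 were higher, of 15 tested pharynx genes 3 and of 38 sperm genes 4, where 5.12% of all genes were higher. Of 16 oocyte and eggshell genes 2 were lower, where 1.61% of all genes were. None of the epidermis, molting, intestine, sperm or oocyte genes was at 0 in a group. Their part in the ttr results was not tested. Without mold 2 of the 16 molting genes were higher in ns889, and 1 intestine gene was higher and 0 lower. In that comparison 2.42% of all genes were higher and 0.453% lower.

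In the comparison with mold the counts depended on single libraries. Without WT with mold replicate 1 there were 6 ttr genes higher in ns889, ttr-23, ttr-56, ttr-44, ttr-33, ttr-11 and ttr-12, beside 7.7% of all genes. Without WT without mold replicate 1, which enters only through the spread, the filter and the scaling, 4 were higher and 8 lower, beside 8.94% and 3.74% of all genes. Without WT with mold replicate 2, ns889 with mold replicate 1 or ns889 with mold replicate 2, 1 was higher (ttr-23) and 1 lower (ttr-6), beside 2.37 to 3.02% and 0.679 to 0.901% of all genes. With both libraries that stood apart left out, 1 was higher and 9 were lower, beside 7.57% and 3.32% of all genes. Within the replicates with 2 runs, 9 of 55 were higher and 6 lower, beside 15.7% and 8.45%. In the comparison without mold 4 were lower with that pair left out, beside 3.29% of all genes, and 4 within the replicates with 2 runs, beside 1.3%. Leaving out any of the 4 replicates named for ttr-28 left 1 lower.

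The comparison of plates with and without mold in WT gave 1 call. ttr-56 was lower with mold, so that 0 of 56 ttr genes were higher and 1 was lower, beside 1.67% and 4.6% of all genes. The median log2 fold change was -0.06 over the ttr genes and 0.01 over all genes. The quartiles were -0.25 and 0.08 over the ttr genes and -0.29 and 0.17 over all genes. At an unadjusted p under 0.05 there were 11 ttr genes, beside 24.59% of all genes. DESeq2 called ttr-49 higher and ttr-56, ttr-11 and ttr-12 lower, 1 and 3 genes, beside 3.09% and 10.4% of all genes.

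ttr-56 is the middle gene of 3 on the forward strand of chromosome I, at chrI:6146461-6147068, with ttr-55 and ttr-58 as neighbours. It was at 1.02, 1.13 and 1.64 CPM in WT without mold and at 0.744, 0.472 and 0.431 CPM in WT with mold. In ns889 it was at 1.07, 1.14 and 1.14 CPM without mold and at 0.918, 1.13 and 1.13 CPM with mold. The 3 WT replicates with mold were the lowest of all 12. The log2 fold change with mold in WT was -1.19 ± 0.25 (adjusted p = 0.0267), and ns889 exceeded WT with mold by 0.94 ± 0.25 (adjusted p = 0.0444). In ns889 the mold response was -0.07 ± 0.24 (adjusted p = 0.92). The difference between the mold responses, tested itself, was 1.12 ± 0.35, with an unadjusted p of 0.00727 and an adjusted p of 0.834. Within the 8 replicates with 2 runs this difference was 1.63 ± 0.37 and passed the threshold (adjusted p = 0.0446). ttr-56 shares 17 exonic bases with ttr-55, which had 162 counts in all.

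Leaving out replicate 2 or 3 of either WT group, fitting only the 2 groups compared or adding the replicate number as a block ended the call of ttr-56 in WT, with adjusted p from 3.37e-04 to 0.221 over all alternatives. The call between genotypes with mold was lost without any of 9 replicates and under 14 of 20 alternatives, with adjusted p from 0.00728 to 0.154. The neighbours had estimates of the same sign that did not pass the threshold. ttr-58 was at 0.397, 1.01 and 1.19 CPM in WT without mold and at 0.417, 0.585 and 0.390 CPM with mold, a log2 fold change of -0.89 ± 0.36 (adjusted p = 0.154). ttr-55 had a log2 fold change of -1.50 ± 0.71 (adjusted p = 0.215) on 0.0103 to 0.327 CPM in WT. Of the 10 tested genes nearest to ttr-56, 1 was called with mold in WT, T09B4.6, at -1.38 ± 0.34 (adjusted p = 0.0389). Between genotypes with mold 3 of the 10 were called, F56F4.4 at 1.79, T09B4.6 at 1.49 and T09B4.8 at 1.24, all higher in ns889.

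**Figure D4:**
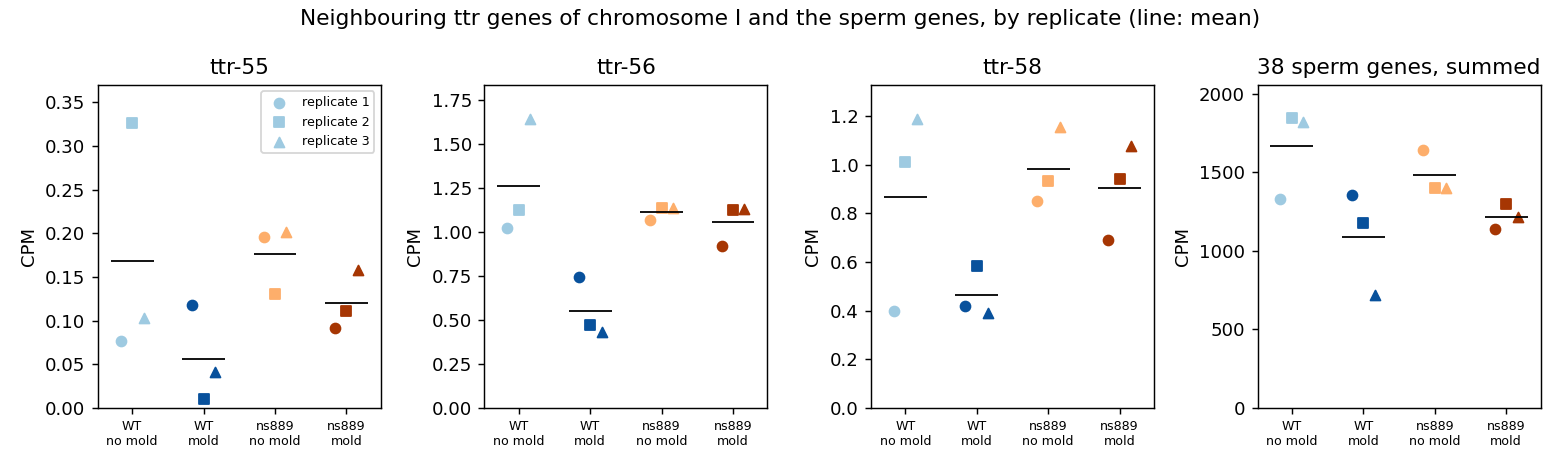
CPM of the neighbouring genes ttr-55, ttr-56 and ttr-58 and the summed CPM of 38 sperm genes in each replicate (symbols), with group means as lines. In WT with mold ttr-56 lies at 0.744, 0.472 and 0.431, and the sperm sum at 1358, 1177 and 722.

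Sperm genes moved in the same comparison. In WT, 7 of 38 sperm genes were lower on plates with mold and 0 higher, beside 4.6% and 1.67% of all genes. Their summed level was 1331, 1849 and 1824 CPM without mold and 1358, 1177 and 722 CPM with mold. In ns889 0 of the 38 passed, beside 1.86% of all genes higher and 1.28% lower. The sums were 1645, 1399 and 1400 CPM without mold and 1138, 1299 and 1216 CPM with mold. With the pair of libraries that stood apart left out, 23 of the 38 were lower in WT on plates with mold and 0 higher. In that fit 12.9% of all genes were lower. Within the replicates with 2 runs 34 were lower, beside 19.4% of all genes. The part of sperm RNA in the ttr-56 result was not tested. Oocyte and eggshell genes summed to 6932 to 9988 CPM in WT without mold and to 8767 to 11050 CPM with mold, with 0 of 16 called. With that pair left out 12 of the 16 were higher with mold in WT and 0 lower, beside 9.55% of all genes higher. Within the replicates with 2 runs 14 were higher and 0 lower, beside 16.9% of all genes higher.

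The WT count turned on single libraries. Without WT without mold replicate 1, 7 ttr genes were lower with mold, ttr-56, ttr-58, ttr-9, ttr-12, ttr-11, ttr-15 and ttr-43, and 1 was higher, ttr-50, beside 14.8% and 13.1% of all genes. Without WT with mold replicate 1, 4 were lower, beside 9.08%. Without replicate 2 or 3 of either WT group 0 were, beside 0.36 to 0.597% of all genes. With the pair of libraries that stood apart left out, 6 were lower and 2 were higher, beside 12.9% and 9.55% of all genes. Within the replicates with 2 runs, 20 of 55 were lower and 2 higher, beside 19.4% and 16.9%. That fit leaves 2 replicates a group. In it 34 of 38 sperm, 10 of 12 muscle and 9 of 15 pharynx genes were lower with mold in WT and 0 higher. Of 16 neuron genes 4 were lower and 1 higher, and of 16 epidermis genes 4 were lower and 1 higher. Of 16 oocyte and eggshell genes 14 were higher and 0 lower, and of 16 intestine genes 5 were higher and 2 lower. Their part in the ttr counts was not tested. WT with mold replicate 3 held the lowest value of all 12 replicates for 19 of the 56 ttr genes, or 33.9%, beside 22.9% of all genes.

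ttr-14 shows that spread most plainly among the abundant members. It was at 130, 388 and 356 CPM in WT without mold and at 284, 203 and 125 CPM in WT with mold. The ns889 replicates were at 269, 330 and 392 CPM without mold and at 218, 341 and 304 CPM with mold. All 4 groups overlapped, and the log2 fold change with mold in WT was -0.52 ± 0.38 (adjusted p = 0.406). It was -0.61 ± 0.27 (adjusted p = 0.156) with the pair of libraries that stood apart left out. Within the replicates with 2 runs it was -1.20 ± 0.22 (adjusted p = 0.00824), over adjusted p of 0.00824 to 0.811 in all alternatives. ttr-14 shares 73 exonic bases with vap-2 on the other strand, which averaged 61.4 CPM.

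ttr-15 was at 436, 571 and 555 CPM in WT without mold and at 493, 448 and 369 CPM in WT with mold. The ns889 replicates were at 514, 508 and 527 CPM without mold and at 394, 422 and 464 CPM with mold. The WT groups overlapped and the ns889 groups did not. The log2 fold change with mold was -0.25 ± 0.12 in WT (adjusted p = 0.201) and -0.28 ± 0.12 in ns889 (adjusted p = 0.316).

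ttr-11 was at 0.388, 0.622 and 0.800 CPM in WT without mold and at 0.336, 0.257 and 0.0821 CPM in WT with mold. Levels in ns889 were 0.853, 0.643 and 0.553 CPM without mold and at 0.600, 0.665 and 0.445 CPM with mold. The WT replicates with mold were the lowest 3 of the 12, but the change of -1.40 ± 0.43 missed the threshold (adjusted p = 0.0655). Its difference between genotypes with mold, 1.33 ± 0.43, missed it as well (adjusted p = 0.0851).

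ttr-33, the gene linked to protection of dopaminergic neurons, was at 6.86, 9.49 and 9.51 CPM in WT without mold and at 10.4, 6.99 and 5.10 CPM in WT with mold. In ns889 it was at 9.27, 9.56 and 10.3 CPM without mold and at 9.03, 10.9 and 10.7 CPM with mold. In the fit of all 12 replicates it was not called in any comparison. Its largest estimate there was the genotype difference with mold, 0.45 ± 0.22 (adjusted p = 0.227). Over that fit and the alternatives this difference was called in 2 of 22, with adjusted p from 0.00438 to 0.575. Within the replicates with 2 runs ttr-33 was lower with mold in WT, at -0.67 ± 0.15 (adjusted p = 0.00785). ttr-33 shares 136 exonic bases with txt-5, which averaged 10.9 CPM, and lies inside the span of mig-6 on the other strand, so its counts are uncertain.

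In ns889 no ttr gene passed the threshold with mold. That is 0 of 56 higher and 0 lower in edgeR's quasi-likelihood test, beside 1.86% and 1.28% of all genes. DESeq2 called 0 as well, beside 3.49% of all genes higher and 2.3% lower. In the edgeR test 8 ttr genes, or 14.3%, had an unadjusted p under 0.05, beside 13.32% of all genes. The lowest adjusted p was 0.114, for ttr-18. This gene was at 128, 125 and 125 CPM in ns889 without mold and at 106, 100.3 and 104.2 CPM with mold, groups that did not overlap. Its log2 fold change was -0.28 ± 0.08 in ns889 and -0.21 ± 0.08 in WT (adjusted p = 0.154). The median log2 fold change in ns889 was -0.13 over the ttr genes and -0.02 over all genes, and 41 of the 56 estimates, or 73.2%, were below 0, beside 53.8% over all genes. Leaving out WT with mold replicate 3 gave 1 gene lower, ttr-18, beside 1.61% of all genes. With both libraries that stood apart left out, 5 were lower, ttr-18, ttr-15, ttr-31, ttr-45 and ttr-16, beside 7.07% of all genes. Within the replicates with 2 runs 1 was lower, ttr-46, beside 1.19% of all genes.

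The difference of the mold responses between the genotypes was called for 0 of 56 ttr genes in either direction, beside 0.0353% and 0.0942% of all genes. The lowest adjusted p was 0.834. At an unadjusted p under 0.05 there were 2, ttr-56 and ttr-23, or 3.57%, beside 4.44% of all genes. DESeq2 called 0, beside 0.274% of all genes higher and 0.193% lower. Within the replicates with 2 runs ttr-56 alone was called, 1 of 55, beside 3.45% of all genes higher. Standard errors of this difference ran from 0.10 to 1.05 on the log2 scale, wider than those of the single comparisons.

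Genes that act with the characterised members were counted in the same comparisons. Cell corpse engulfment and phosphatidylserine exposure, the process TTR-52 takes part in, was covered by 14 genes. With mold in WT 1 of the 14 was higher and 0 lower, beside 1.67% and 4.6% of all genes. The 1 higher was ced-6, the adaptor that acts downstream of CED-1, at 0.36 ± 0.09 (adjusted p = 0.0451). In the other 4 comparisons 0 of the 14 passed in the fit of all 12 replicates. With the pair of libraries that stood apart left out, 4 were higher with mold in WT and 0 lower, beside 9.55% of all genes higher. Within the replicates with 2 runs 6 were higher and 0 lower, beside 16.9% of all genes higher. Between genotypes with mold 5 were lower and 0 higher within those replicates, beside 8.45% of all genes lower. In the fit of all 12 replicates the list's median log2 fold change was 0.11 with mold in WT and -0.16 between genotypes with mold.

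Of 12 tested genes for antioxidant defence and dopamine handling, chosen for the role of TTR-33, 1 was higher with mold in WT, skn-1, an Nrf-type regulator of detoxification, at 0.33 ± 0.07 (adjusted p = 0.0284). With mold in ns889 1 was higher, gst-4, a glutathione S-transferase induced by oxidative stress, at 0.82 ± 0.20 (adjusted p = 0.0441). gst-4 was also the 1 called between genotypes with mold, at 1.45 ± 0.20 (adjusted p = 9.93e-04). In the fit of all 12 replicates none was lower in any comparison, and 1.67%, 1.86% and 5.12% of all genes were higher in these 3 comparisons. With the pair of libraries that stood apart left out, 1 was higher and 1 lower with mold in WT, beside 9.55% and 12.9% of all genes. In ns889 these were 3 and 1, beside 4.71% and 7.07%. Within the replicates with 2 runs 1 was higher and 3 lower with mold in WT, beside 16.9% and 19.4% of all genes. In ns889 it was 2 and 1, beside 1.66% and 1.19%. The medians of this list in the fit of all 12 replicates stayed between -0.02 and 0.10.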

How the data were processed

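Whole-animal poly(A) RNA was sequenced with a stranded kit, per the labels' protocols. The authors deposited whole-number counts per gene, without normalization. FastQC 0.11.12, STAR 2.4a, featureCounts, edgeR 3.28.1, limma 3.42.2 and WBcel235 are named in the submitters' processing notes. For the strand setting and the annotation release, nothing is given in the sources used here. Each group's replicate 1 has a single run and the others 2, which were summed, giving 12 replicates of 95998037 to 115940062 counts.

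Symbols matched 44017 of 46904 gene IDs. After filterByExpr and TMM scaling, edgeR's quasi-likelihood test (R 4.3.3, edgeR 4.0.16, robust glmQLFit) was run in 1 model of 4 group means without covariates. Adjustment was by Benjamini-Hochberg over 16980 genes, threshold 0.05. CPM uses TMM-scaled library sizes, and levels per kilobase use the deposited exonic length. The fit was tested on simulated data.

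Named genes were every ttr gene past the threshold, the 10 highest and 3 lowest tested per length, those not tested, and ttr-52, ttr-11 and ttr-33; other ttr genes are named where they account for a count. Of the 2 pathway lists the called members are named; the 10 marker lists were counted, and their members are left out for length. Members and lists were chosen with earlier results of these data known. Alternatives were RLE size factors, DESeq2 1.42.0, a filter of 5 CPM or none, only the first run, a replicate block, a fit of the 2 groups compared alone, and each replicate left out. After the data were seen, 2 more were added: leaving out the pair of libraries that stood apart (replicate 1 of WT without mold, replicate 3 of WT with mold), and keeping only the replicates with 2 runs. Figures were drawn with matplotlib 3.10.9.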

Additional observations from a re-analysis of the deposited data

How the results depend on the processing

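No call of a named ttr gene changed sign under any alternative run. The calls of ttr-23 and ttr-6 between genotypes held throughout; those of ttr-56, ttr-28, ttr-47 and ttr-16 did not, and the cause was not tested. ttr-56, ttr-23, ttr-28 and other genes below 5 CPM are not tested under the filter of 5 CPM, which alone lowers its counts. Counts of ttr genes that moved by over 1.5 times were as follows. Brackets give the share of all genes called in the same direction by the same fit. With mold in WT, DESeq2 called 1 higher (3.09%) and 3 lower (10.4%), and no filter 2 lower (4.42%). The filter of 5 CPM (1.19%), the replicate block (0.883%) and the fit of only the 2 groups (0.22%) called 0 lower. With the pair of libraries that stood apart left out, 2 were higher (9.55%) and 6 lower (12.9%). Leaving out 1 replicate at a time gave 0 to 1 higher (0.563 to 13.1%) and 0 to 7 lower (0.36 to 14.8%). With mold in ns889, the replicate block gave 1 lower (1.29%) and the fit of only the 2 groups 1 higher (4.71%) and 3 lower (5.17%). The pair left out gave 5 lower (7.07%), and single replicates left out 0 to 1 lower (0.465 to 1.96%). Between genotypes without mold, the filter of 5 CPM gave 0 higher (3.96%) and 1 lower (0.447%). DESeq2 gave 4 lower (1.22%), the pair left out 4 lower (3.29%), and single replicates left out 1 to 3 lower (0.25 to 1.22%). Between genotypes with mold, 1 was higher with no filter (3.29%), the first run (4.92%), the replicate block (4.51%), only the 2 groups (4.16%) or the pair left out (7.57%). With the filter of 5 CPM 0 were higher (5.45%). Lower were 8 with DESeq2 (2.81%), 6 with the first run (1.55%), 7 with the replicate block (1.9%) and 9 with the pair left out (3.32%). Single replicates left out gave 1 to 6 higher (2.37 to 8.94%) and 1 to 8 lower (0.679 to 3.74%). Within the replicates with 2 runs, 2 were higher (16.9%) and 20 lower (19.4%) with mold in WT, and 1 lower (1.19%) with mold in ns889. Between genotypes 4 were lower (1.3%) without mold, and 9 higher (15.7%) and 6 lower (8.45%) with mold. The difference of the responses gave 1 higher (3.45%). Under all other alternatives run, that difference stayed at 0 in both directions. Same-numbered replicates correlated by -0.323 to 0.297 in their deviations from the group means, so the numbers were not taken to pair the samples. Depth limits ttr-52, ttr-55, ttr-57, ttr-3 and ttr-19, which had 1 to 170 counts in all.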
